A study of Mus musculus with 16 samples.

Results

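Transcripts of the interleukin-1 (IL-1) family and of the inflammasome were followed in bone-marrow-derived macrophages (BMDM), macrophages grown in culture from mouse bone marrow. The members were chosen by gene symbol, with earlier results of these data known: Il1a, Il1b, Il1rn, Il18, Nlrp3, Casp1, Casp4 and Pycard. Of these 8 genes, 7 have a row among the 9614 genes of the table, and Il18 was not analysed here. RNA-seq was performed on 16 libraries from 6 male C57BL/6 mice aged 8 weeks by the labels, 3 of them LysM-Cre:NELF-B wt/wt (WT; called mice A, B and C) and 3 LysM-Cre:NELF-B fl/fl (the NELF-B KO, with mice also called A, B and C). Both genotypes carry LysM-Cre, which is active in myeloid cells, and in the KO it recombines the floxed gene of NELF-B (Nelfb), a subunit of the negative elongation factor (NELF) that holds RNA polymerase II near promoters. BMDM were left untreated (2 mice per genotype), or were given 10 ng/ml LPS alone (3 per genotype) or 10 ng/ml LPS with 100 nM dexamethasone (LPS + Dex; 3 per genotype) for 1 hr. LPS is a component of the outer membrane of Gram-negative bacteria, and Dex is a synthetic glucocorticoid that activates the glucocorticoid receptor. The design asks how each transcript responded to LPS, how Dex altered it within the same animal, and whether either response differed without NELF-B.

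IL-1α and IL-1β are cytokines that signal through the same receptor, and the product of Il1rn, the IL-1 receptor antagonist, occupies that receptor without activating it. IL-1β is made as an inactive precursor. Inflammasomes are protein assemblies in which a sensor such as NLRP3 recruits the adaptor ASC, encoded by Pycard, and thereby activates caspase-1, which cuts the precursor. The protease encoded by mouse Casp4 senses LPS inside the cell and cleaves gasdermin D, whose fragments open pores in the membrane. Macrophages that meet LPS through Toll-like receptor 4 are known to transcribe Il1b and Nlrp3, a step called priming. Transcripts alone were measured here, so cleavage and release of the cytokines are outside these data.

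The libraries held 25030934 to 49730083 reads on the genes of the table, recovered from the steps of the deposited values, and 3 reads corresponded to 0.0653 to 0.136 CPM, the reads of a gene scaled by library size. Nelfb ran at 5.59 to 6.21 log2 CPM in the WT and at 3.27 to 4.38 in the KO, so that the groups did not overlap. The difference, KO minus WT, was −2.11 ± 0.34 (SE) in untreated cells (adjusted p = 0.106, limma), −2.02 ± 0.28 under LPS (adjusted p = 0.0111) and −2.0 ± 0.28 under LPS + Dex (adjusted p = 0.00846), and KO mouse B kept the highest Nelfb level of the KO mice in each treatment. The untreated library of WT mouse A stood apart, correlating at r = 0.83 to 0.909 over all genes with the remaining 15 libraries, which reached 0.923 to 0.993 with one another. All 10 macrophage markers were in the table, with a summed level of 13.11 log2 CPM in that library and 13.54 to 13.89 in the others. No T cell, mast cell or erythroid marker had a row (0 of 4, 0 of 3 and 0 of 3), while 1 of 7 neutrophil markers (S100a8, 2.45 to 5.38 log2 CPM), 1 of 4 B cell markers (Cd79b, 3.75 to 5.31), 1 of 4 dendritic cell markers (Ccr7, −1.12 to 3.33) and 3 of 4 fibroblast markers did. In such bulk samples fewer cells of a type and less RNA per cell cannot be told apart.

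Il1a and Il1b lie near each other on chromosome 2 and share a minus-strand orientation. On GRCm38, the assembly that mm10 names, Il1a spans chr2:129299610-129309972 and Il1b spans chr2:129364570-129371139, with a gap of 54597 bases. Il1rn is on the plus strand of the same chromosome at chr2:24336853-24351494, Nlrp3 is at chr11:59541568-59566956, Casp1 at chr9:5298517-5307265, Casp4 at chr9:5308828-5336783 (both on the plus strand, 1562 bases apart) and Pycard on the minus strand at chr7:127989708-127993867. All 7 are protein-coding genes in GENCODE vM21. An opposite-strand gene shares exonic bases with Il1a (222 bases, Gm14023), Il1b (25 bases, Il1bos) and Pycard (485 bases, Gm45205), and whether the counting used strand is not given in the sources used here, so reads from those bases cannot be assigned to a strand.

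The 150 bases before an annotated start site are shown for the members that rose with LPS and for Casp4, which holds the NF-kB motif as Nlrp3 does but did not pass the test. The sequences are from RefSeq (GRCm38.p6) and are written 5′ to 3′ on the gene's strand, and capitals mark 3 motifs searched on both strands, the TATA motif TATAAA, the AP-1 motif TGANTCA and the NF-kB motif GGNNTTTCC, in which N is any base. The Nlrp3 stretch lies inside the gene span given above, before a start site downstream of the first one.
Il1a, chr2:129309973-129310122, minus strand: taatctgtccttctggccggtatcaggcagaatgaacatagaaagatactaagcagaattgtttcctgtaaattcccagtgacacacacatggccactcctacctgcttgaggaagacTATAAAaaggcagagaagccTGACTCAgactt
Il1b, chr2:129371140-129371289, minus strand: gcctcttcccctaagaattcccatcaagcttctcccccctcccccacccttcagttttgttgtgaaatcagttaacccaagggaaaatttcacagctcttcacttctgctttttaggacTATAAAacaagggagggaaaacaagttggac
Il1rn, chr2:24336710-24336859, plus strand: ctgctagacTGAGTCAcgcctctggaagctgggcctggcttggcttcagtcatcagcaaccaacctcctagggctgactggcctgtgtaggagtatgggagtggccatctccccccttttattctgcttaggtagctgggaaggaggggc
Nlrp3, chr11:59542536-59542685, plus strand: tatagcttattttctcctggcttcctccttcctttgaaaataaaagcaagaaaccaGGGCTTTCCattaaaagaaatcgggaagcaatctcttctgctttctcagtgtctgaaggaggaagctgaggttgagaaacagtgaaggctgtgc
Casp4, chr9:5308699-5308848, plus strand: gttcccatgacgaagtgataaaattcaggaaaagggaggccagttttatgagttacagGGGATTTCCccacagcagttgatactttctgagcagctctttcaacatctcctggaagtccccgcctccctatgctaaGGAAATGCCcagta

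The TATA motif began at −32 in Il1a and at −31 in Il1b, counted from the start site, the usual place of a TATA box. It was present in 13.6% of all 32817 promoter windows of RefSeq (250 bases before to 50 after the start site) and in 6.80% of the 9469 windows of genes in the table. The 7 members have 11 windows, some of which overlap, as those of Casp4 do. The NF-kB motif was present in 6 of these windows, from 3 members (Il1rn, Nlrp3 and Casp4). It was in 5.83% of all windows and in 6.29% of those of genes in the table. The AP-1 motif was in 2 of the 11 windows (Il1a and Il1rn), in 7.81% of all windows and in 5.05% of those of genes in the table. The Il1rn windows with the NF-kB letters belong to downstream start sites, 1 of which also holds TATAAA on the opposite strand, and are not shown. The PU.1 motif GAGGAA, for a macrophage lineage factor, was in 4 of the 11 windows (Il1a, Nlrp3, Casp1 and Pycard) and in 28.3% of all windows. The glucocorticoid response element, searched by its consensus, was in 0 of the 11 windows and in 0.475% of all windows. A longer NF-kB consensus was in 3 of the 11 windows, from Nlrp3 and Casp4, and in 4.5% of all windows. Such matches describe letters in these windows and are not measured binding sites.

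In WT BMDM, 4 of the 7 measured members rose with LPS and 0 fell at an adjusted p under 0.1 and over 1.5-fold. Across all genes tested, 6.01% rose and 3.14% fell by the same rule. As the members were chosen with earlier results of these data known, their count is a description beside that share. Il1a attained the level that every gene of the table reaches through treated libraries alone, which limits its place in the count. The same 4 members, Il1a, Il1b, Il1rn and Nlrp3, rose in NELF-B KO BMDM, again with 0 lower, where 3.08% of all genes rose and 1.24% fell. The median log2 change over the 7 members was 1.59 for the WT and 1.64 for the KO, beside 0.02 and −0.01 over all genes. The WT shares of all genes depended on the untreated libraries: 3.09% rose and 1.23% fell without that of mouse A, and 24.6% rose and 22% fell without that of mouse B, and the 4 members were called higher in both cases. Libraries of the same mouse were compared in a fit of all 16 libraries without and with the mouse as a replicate block, and for the members the block is named wherever it altered a call.

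Il1b, the precursor of the main secreted IL-1 cytokine, increased strongly in both genotypes, as did Il1a, and in single mice either of them showed the larger change. Its level was 1.91 and 2.17 log2 CPM in the untreated WT libraries (mice A and B) and 9.48, 9.87 and 9.56 under LPS (mice A, B and C). In the KO it was 1.90 and 1.36 untreated (mice A and B) and 9.88, 10.37 and 9.96 under LPS (mice A, B and C). Every LPS library lay more than 7 log2 units above every untreated one. The fitted increase was 7.60 ± 0.23 (SE) in the WT (194-fold, adjusted p = 2.25e-10) and 8.44 ± 0.23 in the KO (347-fold, adjusted p = 5.87e-11).

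Il1a, whose product is active as a precursor and often stays inside the cell, started lower. The untreated libraries of mice A and B held −1.36 and −0.56 log2 CPM in the WT and −1.82 and −1.06 in the KO, which were only 8, 20, 10 and 16 reads. Under LPS mice A, B and C reached 6.66, 6.71 and 6.14 in the WT and 6.32, 7.34 and 6.10 in the KO. The increase was 7.46 ± 0.43 in the WT (176-fold, adjusted p = 1.08e-07) and 8.03 ± 0.43 in the KO (262-fold, adjusted p = 4.34e-08), and the fold rests on the few untreated reads. Every gene of the table reaches at least 2.04 log2 CPM in 1 library, a level that Il1a attained through its treated libraries alone.

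Il1rn, the antagonist, was already well expressed without LPS and rose far less. It stood at 6.24 and 6.17 log2 CPM in untreated WT BMDM (mice A and B) and at 7.83, 7.67 and 7.90 under LPS (mice A, B and C). KO libraries held 5.83 and 6.31 untreated (mice A and B) and 7.61, 8.20 and 7.32 under LPS (mice A, B and C). The increase was 1.59 ± 0.25 in the WT (3.02-fold, adjusted p = 0.0013) and 1.64 ± 0.25 in the KO (3.12-fold, adjusted p = 0.00113). The LPS libraries lay above the untreated ones in both genotypes without overlap.

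Nlrp3, the sensor that starts assembly, went from 4.71 and 5.61 log2 CPM (untreated WT animals A and B) to 9.25, 9.09 and 9.29 (WT animals A, B and C). In the KO it went from 5.92 and 5.48 (mice A and B) to 9.37, 9.36 and 9.26 (mice A, B and C). The LPS libraries spanned a narrow range in both genotypes, while the untreated WT mice differed by more than either group of LPS libraries. The increase was 4.05 ± 0.21 in the WT (16.6-fold, adjusted p = 3.74e-08) and 3.63 ± 0.21 in the KO (12.3-fold, adjusted p = 9.53e-08).

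**Figure D1:**
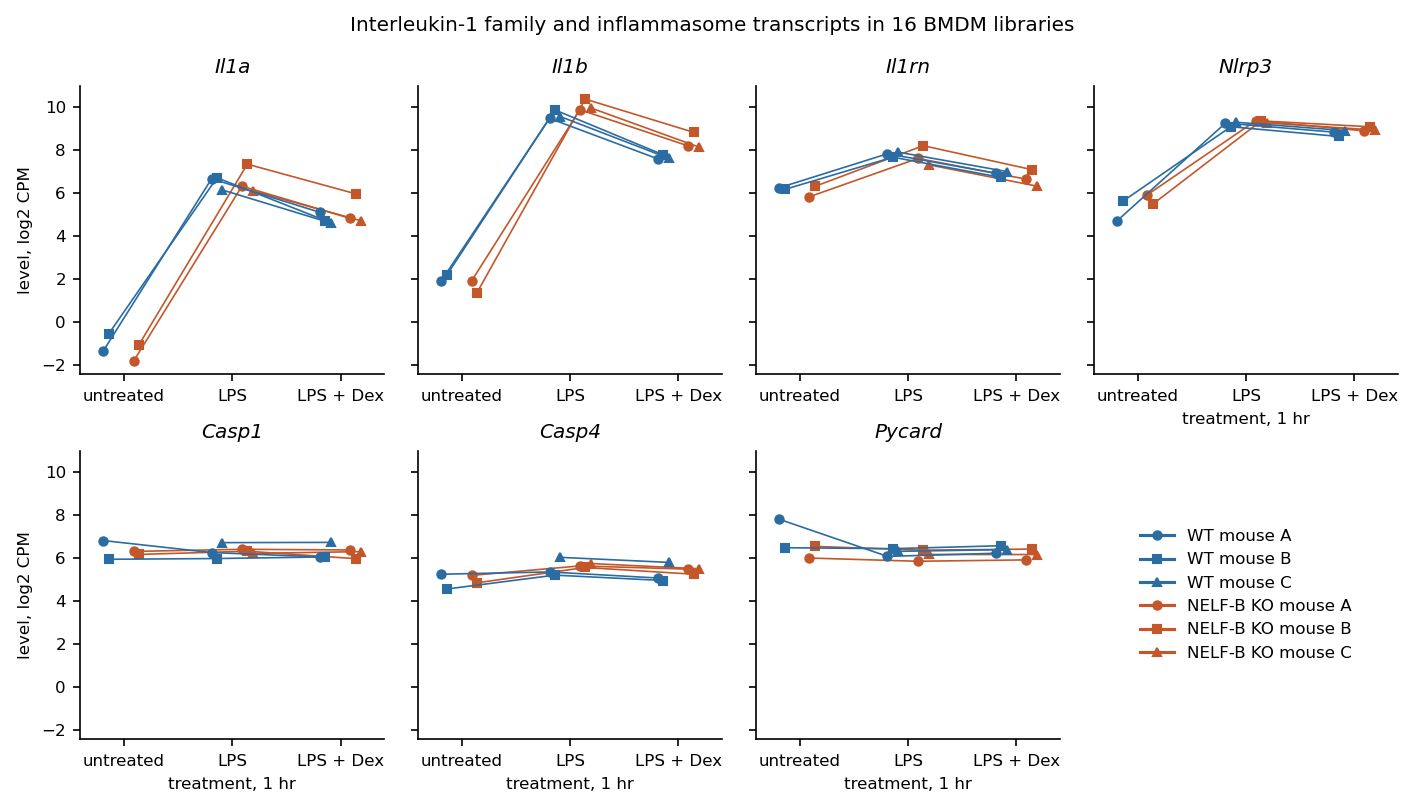
Level of each of the 7 measured members (log2 CPM, vertical axis) by treatment (horizontal axis), with 1 point per library, lines joining the libraries of a mouse, blue for WT and orange for NELF-B KO. Il1a and Il1b climbed from below 2.2 to above 6 with LPS and came down in part with Dex, Nlrp3 stayed above 8.6 in all treated libraries, and Casp1 and Casp4 moved little.

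Casp1, Casp4 and Pycard did not pass the test in either genotype in the fit of all libraries without the block. Casp1, the protease that cuts the IL-1β precursor, ran from 5.93 to 6.81 log2 CPM over all 16 libraries, and its LPS change was −0.06 (95% interval −0.66 to 0.53) in WT cells and 0.08 (−0.52 to 0.67) in KO cells. Casp4 in untreated WT was 5.24 and 4.55 (mice A and B), against 5.35, 5.20 and 6.02 under LPS (mice A, B and C), with overlapping groups and a change of 0.63 ± 0.29 (adjusted p = 0.175). In the KO its 3 LPS libraries, at 5.63, 5.55 and 5.74 (mice A, B and C), lay above the untreated ones at 5.18 and 4.84 (mice A and B), with the same change of 0.63 ± 0.29 (adjusted p = 0.526). With the mouse as a block the KO change was 0.58 ± 0.13 (adjusted p = 0.0308), which remained under 1.5-fold. In a fit of the untreated and LPS libraries of the KO alone, Casp4 was called higher (0.63 ± 0.13, adjusted p = 0.0673).

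Pycard, the adaptor, gave the most negative LPS value of the members, in the WT, and that value depended on 1 library. Untreated WT mouse A, the library that stood apart, held 7.80 log2 CPM, whereas the other 15 libraries of both genotypes held 5.84 to 6.57. The summed macrophage markers were also lowest in that library, and their part in the Pycard value was not tested. The WT change was −0.87 ± 0.31 (adjusted p = 0.112) and was called lower with the mouse as a block (−0.88 ± 0.32, adjusted p = 0.0834), under which 9.11% of all genes were called lower. Without that library the WT change was −0.21, and in the KO it was −0.14 ± 0.31.

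**Figure D2:**
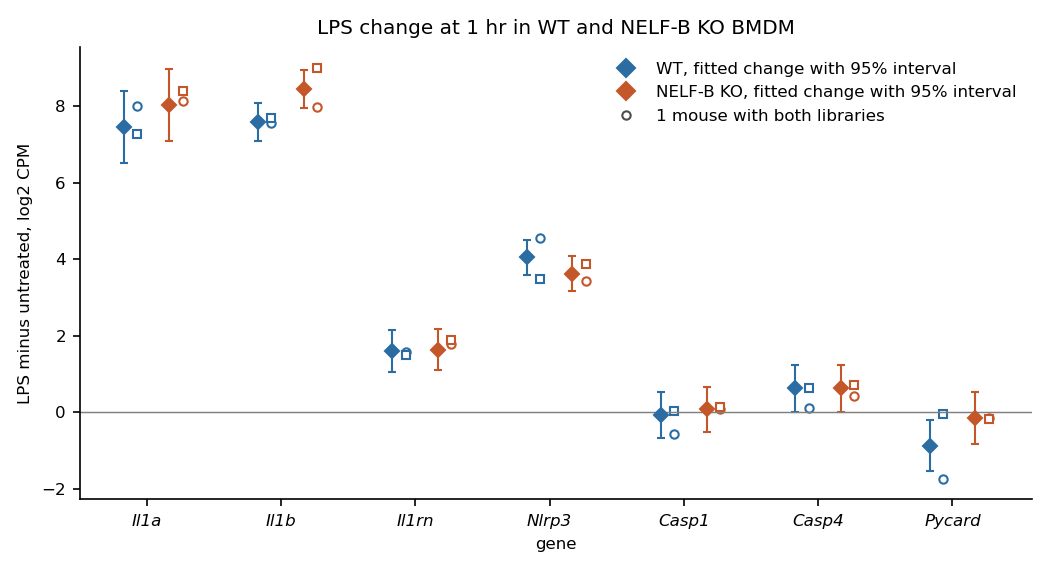
LPS minus untreated (log2 CPM, vertical axis) for each member, with fitted change and 95% interval as diamonds and bars, blue for WT and orange for NELF-B KO, and open symbols for the 2 mice per genotype that had both libraries. Il1b (7.60 and 8.44), Il1a, Nlrp3 and Il1rn lie above 0 in both genotypes, the intervals of Casp1 cross 0, and the WT mice are far apart for Pycard.

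Per kilobase of exon, LPS changed the order of the transcripts. In untreated BMDM of both genotypes Casp1 was highest, at a mean of 5.79 log2 CPM per kb in the WT and 5.65 in the KO. Pycard followed (5.21 and 4.34), with WT values that overlapped those of Casp1, while Il1b (1.10 and 0.70) and Il1a (−1.94 and −2.42) were lowest. Exon lengths count all annotated isoforms, 3800 bases for Pycard and 1497 for Casp1, and the order rests on them. Before this scaling Pycard had the higher untreated mean, 7.135 against 6.37 log2 CPM in the WT and 6.26 against 6.23 in the KO. Il1b was highest under LPS (8.70 in the WT, 9.14 in the KO), followed by Nlrp3 (7.19 and 7.31) and Casp1 (5.73 and 5.72), and Casp4 was lowest (3.63 and 3.75). The ranges of Casp1, Il1a and Il1rn overlapped between neighbours under LPS in both genotypes and did not differ beyond their spread. Without scaling, Il1rn (7.80 and 7.71 log2 CPM in the WT and KO) and Il1a (6.51 and 6.59) had higher LPS means than Casp1 (6.31 and 6.31). Under LPS + Dex the ranges of Nlrp3 (6.77) and Il1b (6.73) overlapped in the WT, whereas in the KO Il1b (7.46) lay above Nlrp3 (6.95) without overlap. Before scaling, Nlrp3 had the higher LPS + Dex mean, 8.79 against 7.66 log2 CPM in the WT and 8.97 against 8.39 in the KO.

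Dex lowered the IL-1 transcripts in part, most for Il1b. In the WT, 2 of the 7 members (Il1a and Il1b) were lower and 0 higher at an adjusted p under 0.1 and over 1.3-fold, where 0.322% of all genes were lower. With the mouse as a block 3 of 7 were lower (Il1a, Il1b and Il1rn), beside 1.22% of all genes. In the KO, 2 of 7 (Il1b and Il1rn) were lower without the block, beside 0.447% of all genes, and the same 3 as in the WT with it, beside 1.45%. Dex and LPS comparisons share the LPS libraries, so a low or high LPS library enters both.

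Il1b reached 7.59, 7.78 and 7.62 log2 CPM under LPS + Dex in WT animals A, B and C, a change of −1.89, −2.09 and −1.94 from the LPS library of the same mouse. In KO animals A, B and C it reached 8.19, 8.83 and 8.14, a change of −1.68, −1.55 and −1.82. Each of the 6 mice moved down, and no LPS + Dex library overlapped an LPS library. The fitted change was −1.97 ± 0.21 in the WT (adjusted p = 0.000318) and −1.68 ± 0.21 in the KO (adjusted p = 0.000994), a level 3.93-fold and 3.21-fold lower.

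Il1a came down to 5.10, 4.72 and 4.61 log2 CPM in WT animals A, B and C and to 4.82, 5.96 and 4.71 in KO animals A, B and C. Within a mouse the change was −1.56, −1.99 and −1.54 in the WT and −1.50, −1.38 and −1.40 in the KO. All 6 mice moved down, although KO mouse B started and ended highest. The fitted change was −1.70 ± 0.39 in the WT (adjusted p = 0.0841) and −1.42 ± 0.39 in the KO (adjusted p = 0.183), and with the mouse as a block the adjusted p was 0.00246 and 0.00553. Leaving out any 1 of the 6 WT libraries of that comparison, without the block, ended the WT call (adjusted p of 0.149 to 0.352).

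Il1rn was 6.92, 6.73 and 7.0 log2 CPM under LPS + Dex in WT animals A, B and C and 6.65, 7.09 and 6.32 in KO animals A, B and C. The same-animal changes were −0.90, −0.94 and −0.90 in the WT and −0.96, −1.11 and −1.0 in the KO. All 6 mice moved down. The fitted change was −0.92 ± 0.23 in the WT (adjusted p = 0.128 without and 9.71e-05 with the block) and −1.02 ± 0.23 in the KO (adjusted p = 0.0603 and 4.26e-05). The KO call without the block was lost on leaving out 4 of its 6 libraries in turn: LPS mice A and B (adjusted p = 0.157 and 0.272) and LPS + Dex mice C and A (0.328 and 0.224).

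Nlrp3 stayed high with Dex. Its LPS + Dex level was 8.83, 8.63 and 8.91 log2 CPM in WT animals A, B and C and 8.89, 9.09 and 8.93 in KO animals A, B and C. All 6 mice gave a lower value than with LPS alone, by 0.27 to 0.47 on the log2 scale, and the fitted change of −0.42 ± 0.19 in the WT and −0.36 ± 0.19 in the KO did not pass the test without or with the block (adjusted p = 1 in both genotypes without it, 0.892 and 1 with it). Both fits use 1 spread per gene over all groups. Nlrp3 varied most in untreated WT cells, which are outside this comparison (standard deviation 0.64, against 0.058 to 0.14 in the treated groups). Casp4 was lower in 6 of 6 mice by 0.15 to 0.31 and Casp1 in 3 of 6, and Pycard was higher in 5 of 6 by at most 0.15, none of them past the test. The share of all genes that move one way in all 6 mice was not computed, so counts of mice are given as a description only.

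**Figure D3:**
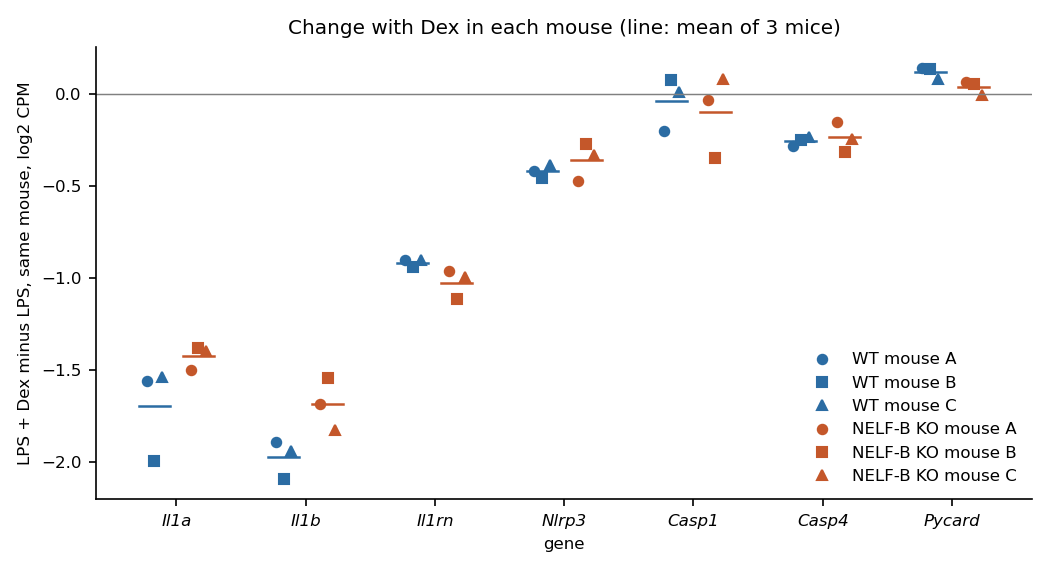
LPS + Dex minus LPS in the same mouse (log2 CPM, vertical axis) for each member, with 1 symbol per mouse, blue for WT and orange for NELF-B KO, and a line at the mean of 3 mice. All 6 mice lie between −2.09 and −1.55 for Il1b and between −1.99 and −1.38 for Il1a, near −1 for Il1rn, between −0.47 and −0.27 for Nlrp3, and around 0 for Casp1 and Pycard.

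The share of the LPS increase that was left with Dex was set against the untreated level in the 4 mice with all 3 treatments, on the linear CPM scale. For Il1b it was 26.6% and 23.1% in WT animals A and B and 30.8% and 34.1% in KO animals A and B. Il1a kept 33.6% and 24.7% in the WT and 35.1% and 38.3% in the KO, and Il1rn kept 30.1% and 25.9% in the WT and 31.3% and 26.5% in the KO. Nlrp3 kept 73.7% and 70.3% in the WT and 69.2% and 81.6% in the KO. Thus a smaller log2 change of Il1rn removed about as large a share of its smaller LPS increase, whereas most of the Nlrp3 increase remained.

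The ratio of the antagonist to the agonist was computed within each library per kb of exon, so that it does not depend on depth. The exon length of Il1rn (5535 bases) counts all annotated isoforms, and another length would shift every library alike. Il1rn over Il1b was 6.96 and 5.51 in untreated WT BMDM (mice A and B) and 5.23 and 10.6 in untreated KO BMDM (mice A and B), so the antagonist transcript was the more abundant. Under LPS the ratio was 0.11, 0.075 and 0.109 in WT animals A, B and C and 0.0715, 0.0767 and 0.055 in KO animals A, B and C. With LPS + Dex it was 0.217, 0.166 and 0.225 in the WT and 0.118, 0.104 and 0.0977 in the KO, in the same order of mice.

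Dex thus moved the ratio toward the antagonist in each of the 6 mice, by 0.98, 1.15 and 1.04 log2 units in WT animals A, B and C and by 0.72, 0.43 and 0.83 in KO animals A, B and C. The 3 WT changes lay above the 3 KO changes (KO minus WT −0.40), and the LPS + Dex ratios of the KO lay below those of the WT (−0.92 log2 units). Each gave p = 0.1 by an exact two-sided permutation test, the smallest p that 3 mice against 3 allow, and 0.35 after adjustment over the 7 ratio comparisons made. Under LPS alone the KO minus WT difference of Il1rn over Il1b was −0.53 log2 units (exact permutation p = 0.2), with overlapping ranges. The LPS + Dex difference takes in this value and the difference in Dex change, so these results are not separate. Il1rn over Il1a did not separate the genotypes, with a difference of −0.17 log2 units under LPS (exact permutation p = 0.7) and −0.55 under LPS + Dex (p = 0.2).

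**Figure D4:**
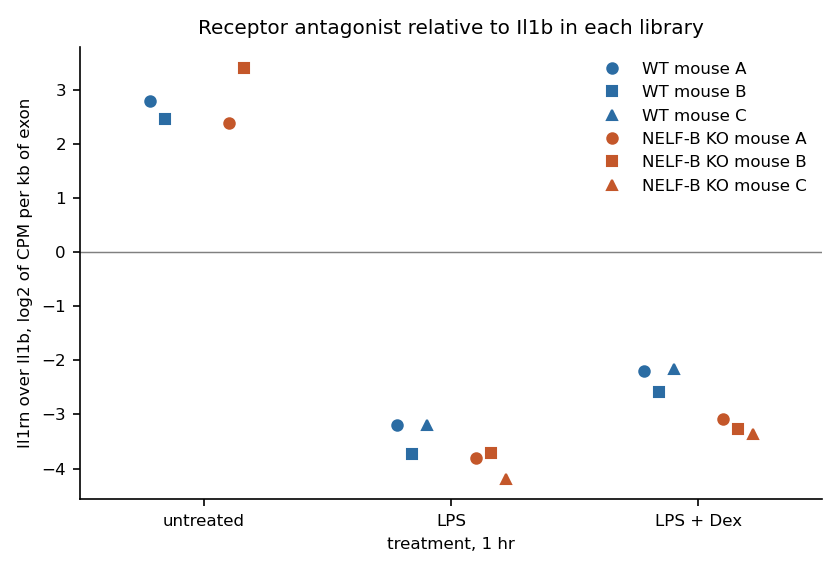
Il1rn over Il1b in each library (log2 of the ratio of CPM per kb of exon, vertical axis) by treatment, with 1 symbol per mouse, blue for WT and orange for NELF-B KO, and a line at equal levels. Untreated libraries lie at 2.39 to 3.41. LPS libraries lie at −3.74 to −3.19 in the WT and −4.18 to −3.705 in the KO, and LPS + Dex libraries of the WT (−2.59 to −2.15) above those of the KO (−3.36 to −3.09).

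No member differed between the genotypes past the test. At an adjusted p under 0.05 and over 1.5-fold, 0 of 7 members differed between KO and WT in untreated cells, under LPS or under LPS + Dex, where 0.0104%, 0.146% and 0.114% of all genes differed. At an unadjusted p under 0.05, limma gave 2 members in untreated cells (Nlrp3 and Pycard), 0 under LPS and 1 under LPS + Dex (Il1b), beside 15.2%, 6.92% and 7.93% of all genes. Voom in limma on the recovered reads also called 0 members in each.

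Il1b gave the largest genotype value in treated cells. Its KO minus WT difference was −0.41 ± 0.25 log2 units in untreated cells (adjusted p = 0.371), 0.44 ± 0.21 under LPS (adjusted p = 0.739) and 0.73 ± 0.21 under LPS + Dex (adjusted p = 0.176). The KO libraries lay above the WT ones under LPS + Dex (8.14 to 8.83 against 7.59 to 7.78). Under LPS (9.88 to 10.37 against 9.48 to 9.87) they did so only barely, with KO mouse A at 9.878 and WT mouse B at 9.868. The same mice gave both treatments, and the share of all genes that separate in this way was not computed. A string that may name a run is shared by the labels of KO mouse B and the untreated label of WT mouse B, but the LPS and LPS + Dex labels of WT mouse B lack it. Labels of both mice C hold strings of another form, and mice A are the remaining ones. The labels of KO mouse A hold strings of their own and those of WT mouse A hold none, so no label joins these mice. Paired in this way, which rests on the mouse and not on the run of each library, KO minus WT in mice A, B and C was 0.40, 0.50 and 0.41 under LPS and 0.61, 1.05 and 0.52 under LPS + Dex, and 0.00 and −0.81 in untreated mice A and B. With that pairing as a block the adjusted p was 0.0905 under LPS and 0.0631 under LPS + Dex, neither past the test. That fit used the compared groups alone, and 1834 and 2292 of 9614 genes had an unadjusted p under 0.05 (limma). Without the block the same libraries gave 811 and 1090, so the shift was not particular to Il1b.

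The other members differed less in treated cells. The KO minus WT difference of Il1a was −0.49 ± 0.47 untreated, 0.08 ± 0.39 under LPS and 0.35 ± 0.39 under LPS + Dex, that of Il1rn −0.14 ± 0.28, −0.09 ± 0.23 and −0.20 ± 0.23, and that of Nlrp3 0.55 ± 0.23, 0.12 ± 0.19 and 0.18 ± 0.19. Casp1 differed by −0.14, 0.00 and −0.06, and Casp4 by 0.12, 0.12 and 0.14. Pycard differed by −0.87 ± 0.34 untreated (adjusted p = 0.324), −0.15 ± 0.28 under LPS and −0.23 ± 0.28 under LPS + Dex. The untreated values of Nlrp3 and Pycard rest on WT mouse A, and without that library they were 0.10 and −0.21. With it as the sole untreated WT library they were 1.00 and −1.54 and passed the test (adjusted p = 0.000696 and 0.000743), as did 40.7% of all genes, with the lone library assumed to vary like the other groups.

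The difference between the genotypes in response was tested directly and was called for 0 of 7 members, and for 0% of all genes, for LPS and for Dex, without or with the mouse as a block. At an unadjusted p under 0.05, limma gave 221 genes for LPS and 0 for Dex without the block, and 396 and 27 with it. Each of these counts is below what that threshold gives by itself over 9614 genes when nothing differs. The lack of calls therefore does not show that the responses were equal. The LPS increase of Il1b was larger in the KO by 0.84 (95% interval 0.14 to 1.54, adjusted p = 0.69), that of Il1a by 0.57 (−0.75 to 1.89), that of Il1rn by 0.05 (−0.73 to 0.82), and that of Nlrp3 smaller, at −0.43 (−1.08 to 0.22). For Nlrp3 the difference was −0.88 and passed the test (adjusted p = 0.00647) when WT mouse B was left out of the untreated cells, which leaves mouse A, and 38.8% of all genes then passed. The Dex change of Il1b was less negative in the KO by 0.29 (−0.34 to 0.92), that of Il1a by 0.27 (−0.91 to 1.46), and that of Nlrp3 by 0.06 (−0.52 to 0.64), while that of Il1rn was more negative (−0.11, −0.80 to 0.58), each with adjusted p = 1. Pycard gave an LPS difference of 0.72 (−0.23 to 1.68), which takes in the untreated library of WT mouse A. These intervals are not adjusted for the number of genes tested. Apart from that of Il1b with LPS, whose difference was not called, they leave room for differences in either direction.

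Across the 16 libraries the closest neighbours of the members by Pearson's r, given as a description over libraries that share mice and treatments, differed by member. Il1a was closest to Il1b (r = 0.992), Tnf (0.990) and Il6 (0.990), and Il1b to Il1a, Ptgs2 (0.989) and Tnf (0.986). Il1rn was closest to Hcar2 (0.978), Tnip3 (0.940) and 4930430E12Rik (0.939), and Nlrp3 to Cxcl10 (0.998), Dnajb4 (0.992) and Ccnl1 (0.991). Casp1 was closest to Ccdc25 (0.924), Nmral1 (0.920) and Batf2 (0.895), Casp4 to Pnp (0.939), Arrdc4 (0.880) and H2-Q4 (0.877), and Pycard to Eef1g (0.974), Nudt3 (0.974) and Urm1 (0.974).

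The other genes of the pathway were taken from 6 lists, of which 55 of 77 genes had a row. Without the block, 11 rose and 3 fell with LPS in the WT, and 7 rose and 1 fell in the KO, with medians of 0.28 and 0.14 log2 units beside the 0.02 and −0.01 over all genes and the shares of all genes called given above. With the mouse as a block 14 rose and 4 fell in the WT, beside 11.8% and 9.11% of all genes, and 9 rose and 2 fell in the KO, beside 4.04% and 2.12%. The WT calls nearest the threshold were also lost on leaving out LPS libraries in turn, those of Txnip and Chuk without any 1 of the 3, that of Nlrc4 without mouse A or B and that of Il16 without mouse A or C, and the KO call of Txnip was lost without KO mouse A. Without the untreated library of WT mouse A, 7 rose and 2 fell in the WT, and without that of mouse B 24 rose and 5 fell, a check added after seeing the data. With Dex 0 of 55 passed in either direction in either genotype (medians 0.01 and 0.02), and 0 of 55 differed between genotypes in any treatment. With the mouse as a block, Zc3h12a rose by 0.40 with Dex in the KO.

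Of the other IL-1 family ligands, 1 of 6 was in the table: Il1f9, which encodes IL-36γ. It was low and variable, at 0.64 and 2.26 log2 CPM in the untreated WT and 1.75 to 4.09 under LPS, and its change of 1.78 ± 0.82 in the WT (adjusted p = 0.178) and 1.51 ± 0.82 in the KO (adjusted p = 0.768) did not pass. With the mouse as a block it was called in both (1.34 ± 0.14, adjusted p = 0.000327, and 1.27 ± 0.14, adjusted p = 0.000475). Of the receptors and decoys, 2 of 11 were in the table, and 0 changed: Il18bp, a soluble decoy that binds IL-18, had an LPS change of −0.06 ± 0.25 in the WT and 0.00 ± 0.25 in the KO, and Il1rl2, the IL-36 receptor, 0.69 ± 0.47 and 0.30 ± 0.47.

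Of the inflammasome sensors other than Nlrp3, 8 of 13 were in the table, and LPS raised 2 of them in the WT and 1 in the KO. Mefv, which encodes pyrin, rose by 2.01 ± 0.17 in the WT (adjusted p = 5.35e-06) and by 1.72 ± 0.17 in the KO (adjusted p = 2.49e-05). Nlrc4, a sensor of bacterial flagellin and secretion systems, rose in the WT by 0.64 ± 0.18 (adjusted p = 0.0497), but by 0.24 without the untreated library of mouse A (adjusted p = 0.461). Of the execution and release genes, 7 of 8 were in the table and 0 rose. Il16 fell by 0.73 on the log2 scale in the WT (adjusted p = 0.0779; 0.42 without the untreated library of mouse B, adjusted p = 0.18), and Gsdmd, the pore-forming substrate of the inflammatory caspases, had an LPS change of −0.07 ± 0.20 in the WT and 0.17 ± 0.20 in the KO.

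Among the inflammasome regulators, 17 of 19 were in the table, and 4 rose and 1 fell in the WT, with 3 and 1 in the KO. Tnfaip3, which encodes the ubiquitin-editing inhibitor A20, ran at 5.30 to 6.16 log2 CPM in untreated WT cells and at 10.88 to 11.08 under LPS, and rose by 5.25 ± 0.19 in the WT and 5.32 ± 0.19 in the KO (adjusted p = 1.03e-09 and 9.69e-10). It remained at 10.94 to 11.22 in the WT with LPS + Dex. Gbp5, a guanylate-binding protein, rose by 4.83 ± 0.39 and 4.20 ± 0.39 (adjusted p = 3.28e-06 and 1.12e-05), Gbp2 by 1.76 ± 0.41 in the WT (adjusted p = 0.0193, and 0.221 without the untreated library of mouse A), and Bcl10 by 1.01 ± 0.14 and 0.67 ± 0.14 (adjusted p = 0.000557 and 0.0146). Untreated Gbp5 ran from 1.23 to 2.02 log2 CPM. Like Il1a, it attained the 2.04 that every gene of the table reaches through its treated libraries alone, which limits its test and its place in the counts. Txnip, which binds thioredoxin, fell by 1.3 on the log2 scale in the WT and by 1.76 in the KO (adjusted p = 0.0826 and 0.0286). Without the untreated library of WT mouse B the WT change of Txnip was −0.32 (adjusted p = 0.364), and without that of either KO mouse the KO call was lost (adjusted p = 0.218 and 0.198) at nearly the same change, as was that of Bcl10 (0.134 and 0.132).

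All 20 genes of IL-1 receptor signalling were in the table, and 5 rose and 1 fell in the WT, with 3 and 0 in the KO. Peli1, a ubiquitin ligase that acts on IRAK kinases, rose by 1.93 ± 0.28 in the WT and 1.52 ± 0.28 in the KO (adjusted p = 0.000578 and 0.00449). Irak2, a kinase of the receptor complex, rose by 1.17 ± 0.19 and 1.02 ± 0.19 (adjusted p = 0.00165 and 0.00571), and Zc3h12a, an RNase that degrades cytokine mRNAs, by 0.92 ± 0.14 and 1.02 ± 0.14 (adjusted p = 0.000753 and 0.000285). Tifa and Chuk rose in the WT by 0.75 ± 0.12 and 0.67 ± 0.20 (adjusted p = 0.00172 and 0.0667), and Tab1, a partner of the kinase TAK1, fell by 0.88 on the log2 scale (adjusted p = 0.00213). Without the untreated library of WT mouse A these values were 0.55, 0.16 and −0.56, none of them called, Tifa and Tab1 for being under 1.5-fold. Myd88, the adaptor shared by the IL-1 receptor and most Toll-like receptors, had a change of 0.60 ± 0.25 in the WT and 0.38 ± 0.25 in the KO that did not pass, and was called in the WT with the mouse as a block.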

How the data were processed

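Paired 50-base reads from polyA-selected RNA were mapped by the authors to mm10 in CLC Genomic Workbench, unique exon reads were counted per gene and scaled by the weighted trimmed mean method in edgeR, and log2 CPM was deposited for 9614 genes. CASAVA 1.8, FastQC and edgeR are named in the submitters' processing notes. The filter behind the 9614 genes is not given in the sources used here. Deposited p-value and FDR columns hold the authors' pairwise comparisons and were not used. Values under 3 CPM fell on whole reads in 100% of cases (within 0.1 read), which gave the depths. The value of 3 reads covers counting error only, whereas intervals of fitted changes rest on the spread between libraries.

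The deposited log2 values of all 16 libraries were fitted with limma 3.58.1 (trend) in R 4.3.3, with p-values adjusted by Benjamini-Hochberg over 9614 genes. The fit had 10 residual degrees of freedom, and 6 once mouse was added as a replicate block. The pairing comes from mouse numbers in the labels: LPS and LPS + Dex libraries of a mouse deviated together with r of 0.781 to 0.939, and untreated and LPS libraries with r of 0.185 to 0.822. The adjusted p and fold thresholds follow the study's Results, the unadjusted ones of its methods were tried as an alternative, and the code was tested on simulated data. Python 3.11.15 and scipy 1.17.1 gave the permutation tests. Named genes were the members, Nelfb, listed pathway genes past the thresholds and the 3 genes closest to each member, and uncalled pathway genes (Il1f9, Il18bp, Il1rl2, Gsdmd and Myd88) were named after their values were seen. Members and lists were chosen with earlier results of these data known. Leave-one-out values of the ratio were added after seeing the data.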

Additional observations from a re-analysis of the deposited data

How the results depend on the processing

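The number of members called with LPS was 4 or 5 in either genotype under every alternative run. With Dex in the WT it was 3 with the mouse as a replicate block, in a fit of the compared groups alone and with unadjusted thresholds. It was 0 with WT mice A and B alone, and 1 on leaving out any library. In the KO it was 3 with the block, with log2(CPM + 1), with voom and with unadjusted thresholds. It was 1 in a fit of the compared groups alone, and 1 to 3 on leaving out a library. With unadjusted thresholds 1 member differed between genotypes in untreated cells and 1 under LPS + Dex. Leaving out a library gave 0 to 2 members for the untreated genotypes and for the LPS response by genotype, with the 2 reached without untreated WT mouse B. Of the single member values, 408 kept direction and call under alternatives other than leaving out a library, 3 lost the call, 13 gained it and 2 changed sign: Casp4 in untreated KO against WT (−0.020, mouse as a random block) and Casp1 in KO against WT under LPS (0.0063, centred on the median gene). Leaving out a library changed the sign of these values, given as ranges of log2 change. With LPS, Casp1 ran from −0.50 to 0.37 in the WT and Pycard from −0.41 to 0.13 in the KO. With Dex, Casp1 ran from −0.26 to 0.16 in the WT and −0.18 to 0.024 in the KO, and Pycard from −0.10 to 0.16 in the KO. For KO minus WT in untreated cells, Il1rn ran from −0.38 to 0.10, Casp1 from −0.58 to 0.30 and Casp4 from −0.23 to 0.46. Under LPS, Il1a ran from −0.29 to 0.33, Il1rn from −0.34 to 0.11, Casp1 from −0.17 to 0.20 and Casp4 from −0.046 to 0.37, and under LPS + Dex, Il1a from −0.045 to 0.58, Casp1 from −0.18 to 0.16 and Casp4 from −0.023 to 0.40. For the LPS response by genotype, Il1rn ran from −0.20 to 0.29 and Nlrp3 from −0.88 to 0.022, and for the Dex response by genotype, Il1a from −0.13 to 0.65, Il1rn from −0.31 to 0.14 and Nlrp3 from −0.018 to 0.12. The cause of these changes was not tested. The lower Il1rn to Il1b ratio of the KO held its direction without any 1 mouse (−1.06 to −0.84 under LPS + Dex), a check added after seeing the data.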
